A study of Oryza sativa with 12 samples.

Results

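The heavy metal P-type ATPases (HMAs) are membrane pumps that spend ATP to move zinc, cadmium, copper and related metals out of the cytosol. The genes described here are HMA1 (OS06G0690700), HMA2 (OS06G0700700), HMA3 (OS07G0232900), HMA4 (OS02G0196600), HMA5 (OS04G0556000) and HMA9 (OS06G0665800). They were chosen by locus identifier, and all 6 were found among the 33277 genes of every deposited table. Crowns, the compact stem base that carries the shoot meristem, leaf sheaths and crown roots, were collected from rice grown for 8 days with 1.5 µM ZnSO4 or with 0 µM ZnSO4. All plants, controls included, stood in full-strength Yoshida solution with 0.1% agar and 1 mM KHCO3. They were 2-week-old plants when this treatment began. By the labels, the Zn-efficient class holds Nipponbare, RIL46 and IR55179-3B-11-3. The Zn-inefficient class holds Kinandang Patong, IR74 and IR64. Each genotype gave 1 library per Zn supply, so that the 12 libraries form 4 groups of 3 and a group's spread is a spread between genotypes. A class difference is therefore a difference between these 3 and these 3 genotypes, and the labels do not say how many plants were in a library.

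In plants the HMA family falls into a zinc and cadmium branch and a copper branch. In rice the first holds HMA1, HMA2 and HMA3, and HMA4, HMA5 and HMA9 belong to the second. HMA2 sits in the plasma membrane and moves zinc and cadmium towards the shoot and to developing tissues, and HMA3 locks cadmium into root vacuoles. HMA4 stores copper in root vacuoles and HMA5 loads copper into the xylem, while HMA9 is a plasma membrane exporter of copper and other metals. The Arabidopsis protein named HMA1 lies in the chloroplast envelope. Plants short of zinc commonly raise the transcripts of zinc transporters.

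The files used here give 1 value per gene and comparison and no value per library, so values of single genotypes cannot be shown and the depth of each library is unknown. Over all libraries, the mean normalised count (counts divided by DESeq2 size factors) was 2311 for HMA4, 2153 for HMA1, 1232 for HMA9, 798 for HMA5, 313 for HMA2 and 60.5 for HMA3 by the authors' deposited table. These means depend on transcript length and are therefore not compared between genes. The median over all 33277 genes was 49.4. The labelled tissue was set against marker genes: OSH1 and OSH15, homeobox genes of the shoot meristem, had means of 1297 and 1407, and the crown root regulators CRL1 and WOX11 had 42.2 and 144 by the authors' deposited table. The root markers RCc3, LSI1 and LSI2 had means between 1960 and 2933, and the leaf genes CAB1R and PSBO had 1948 and 543 by the authors' deposited table. The leaf gene RBCS (OS12G0274700) was low at 7.91.

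Of the 6 genes, HMA1 rose strongly on the withdrawal of Zn in both classes. HMA2 fell by less than 2-fold in inefficient genotypes and over all genotypes, and the other 4 did not pass a test of change. HMA1 is annotated as similar to a potential cadmium/zinc-transporting ATPase, and a second transcript as similar to a copper-exporting ATPase. In efficient genotypes its derived group mean was 323 normalised counts with Zn and 2728 without it, and in inefficient genotypes 303 and 5257, computed from the authors' deposited table. Both groups without Zn thus stood far above both groups with Zn, and the inefficient group without Zn was the highest. The corresponding rise was 8.45-fold in efficient (95% interval 6.69 to 10.7) and 17.3-fold in inefficient genotypes (13.7 to 21.9), computed from the authors' deposited table. As bulk tissue was sequenced, more cells of a type and more RNA per cell cannot be told apart here or below.

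**Figure D1:**
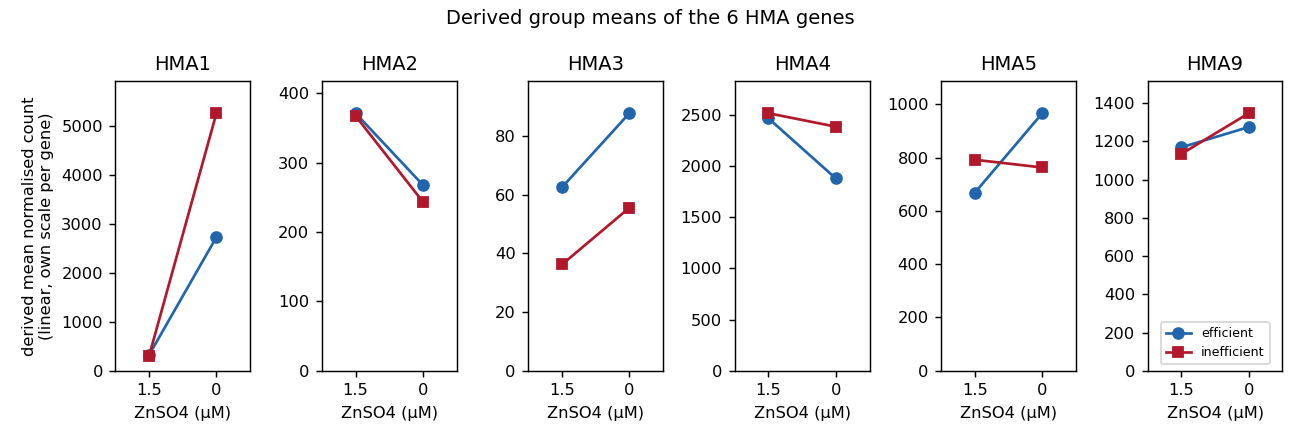
Derived mean normalised counts (linear y axis from 0, its own scale for each gene) at 1.5 and 0 µM ZnSO4 for the 6 HMA genes; circles are efficient and squares inefficient genotypes, each the derived mean of 3 libraries, with no error bar because the tables hold no library values. HMA1 rises from 323 to 2728 and from 303 to 5257, while HMA2 lies lower without Zn in both classes.

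The authors' test asks whether a gene changed by more than 2-fold, and a gene is called changed here when its adjusted p over all genes of the table is under 0.05. In efficient genotypes HMA1 was the only member of the 6 to pass, in a comparison where 0.280% of 26062 tested genes did. Its log2 fold change was 3.08 there (SE 0.17, DESeq2 adjusted p = 4.72e-30), and it ranked 8 by p-value by the authors' deposited table. In inefficient genotypes it was again the only member called, against a background of 3.50% of 24127 genes, and it ranked 3 by p-value. Here the log2 fold change was 4.12 (SE 0.17, DESeq2 adjusted p = 3.83e-69) by the authors' deposited table. Over all 12 libraries the rise was 3.60 (SE 0.20, DESeq2 adjusted p = 2.19e-35) by the authors' deposited table, where 1.12% of 25373 genes were called and no other member was. The median log2 fold change over the 6 members was 0.31 within the efficient class, 0.10 within the inefficient class and 0.21 for the 12 libraries, beside 0.00 over all genes tested in each.

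**Figure D2:**
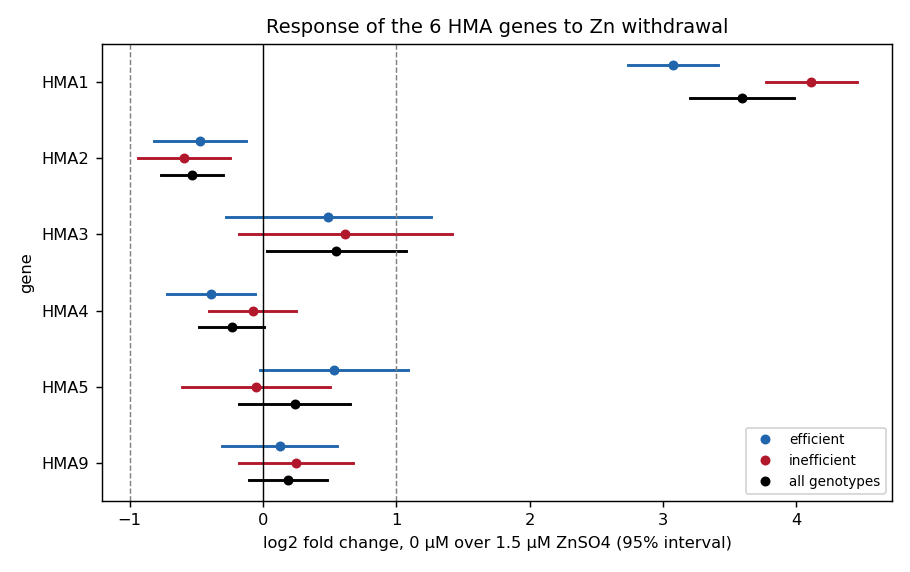
Log2 fold change on Zn withdrawal (x axis, 0 over 1.5 µM ZnSO4) of the 6 genes (y axis) in efficient genotypes, inefficient genotypes and all genotypes; points are the deposited values, lines their 95% intervals, and dashed lines mark a 2-fold change. HMA1 lies at 3.08, 4.12 and 3.60, beyond the 2-fold line, and HMA2 lies below 0 in all 3 comparisons.

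The response of HMA1 differed between the classes. The log2 rise was larger in inefficient genotypes by 1.04 (SE 0.24, 95% interval 0.56 to 1.51), a ratio of folds of 2.05, computed from the authors' deposited table. This passed a two-sided test of any difference from the DESeq2 estimates (adjusted p = 0.00294), as did 2.36% of 24127 genes. It was the only member that did. A test of a difference beyond 2-fold was not passed (adjusted p = 1.00 from the DESeq2 estimates). Computed from the authors' deposited table, the difference was −0.12 (SE 0.25) for HMA2, 0.13 (SE 0.57) for HMA3 and 0.12 (SE 0.31) for HMA9. Those of HMA4 and HMA5 were 0.31 (SE 0.24) and −0.58 (SE 0.40) on the same scale, with 95% intervals from −0.15 to 0.78 and from −1.37 to 0.20. The intervals of these 5 genes include 0 but do not show equal responses, and that of HMA3 spans −0.98 to 1.24.

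HMA2, the plasma membrane zinc pump, went the other way. Its derived group means were 372 and 368 normalised counts with Zn and 268 and 244 without it, efficient genotypes first, computed from the authors' deposited table. Both groups without Zn lay below both groups with Zn, and the efficient class was the higher at each supply, without passing a test. The log2 fold change was −0.47 (SE 0.18) in efficient and −0.59 (SE 0.18) in inefficient genotypes by the authors' deposited table. As no member but HMA1 passed beyond 2-fold, a test of any change was computed from the deposited log2 fold changes and SEs. HMA2 passed this test in inefficient genotypes (adjusted p = 0.00408) and over all genotypes, where it fell by 30.8% (adjusted p = 7.82e-05), both from the DESeq2 estimates. In efficient genotypes it did not pass (adjusted p = 0.0762 from the DESeq2 estimates). A change of some size was common: 32.2% of genes passed this test in inefficient genotypes, 34.1% over all genotypes and 7.86% in efficient ones. HMA1 passed it in all 3 Zn comparisons, and besides these HMA genes no member did in any. When the SEs were widened by the spread of the statistic over all genes, which holds real responses too, HMA2 no longer passed in inefficient (adjusted p = 0.914) or over all genotypes (adjusted p = 1.00), both from the DESeq2 estimates.

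The count of HMA2 is not settled by these tables. The preceding loci in identifier order, OS06G0700550 and OS06G0700601, are both annotated as hypothetical and had means of 354 and 405 normalised counts by the authors' deposited table. Their log2 fold changes were close to those of HMA2, at −0.47 and −0.42 in efficient and −0.60 and −0.56 in inefficient genotypes by the authors' deposited table. Whether these loci overlap HMA2 and draw on the same reads, and whether counting used strand, was not tested, and they were picked after their values were seen. For HMA1 the adjacent loci OS06G0690600 and OS06G0690900 were not called beyond 2-fold in either class. OS06G0690600 lay at −0.58 (SE 0.55) and −0.84 (SE 0.55), and OS06G0690900 at 0.11 (SE 0.29) and 0.61 (SE 0.28), efficient genotypes first, by the authors' deposited table. The next loci out were not called beyond 2-fold either. In the same order, OS06G0690200 lay at 0.40 (SE 0.52) and 1.66 (SE 0.52), and OS06G0691000 at 0.01 (SE 0.18) and 0.45 (SE 0.18). The test of any change is not given here for these loci.

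HMA3, the vacuolar cadmium pump, was the gene with the widest errors of the 6. Its derived group means were 62.6 and 87.8 normalised counts in efficient and 36.2 and 55.6 in inefficient genotypes, with Zn first, computed from the authors' deposited table. The means without Zn were higher in each class, and those of inefficient genotypes were lower at each supply. The log2 fold change on Zn withdrawal was 0.49 (SE 0.39) in efficient, 0.62 (SE 0.41) in inefficient and 0.55 (SE 0.27) over all genotypes by the authors' deposited table. The last of these did not pass the test of any change (adjusted p = 0.0966 from the DESeq2 estimates). The locus before HMA3 in identifier order is ZIP8 (OS07G0232800), a zinc uptake transporter gene, which rose by 3.80 (SE 0.38) and 4.17 (SE 0.38) on the log2 scale by the authors' deposited table. These neighbours therefore stood far apart in their Zn response, without a test of that difference.

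Of the copper branch, HMA4, HMA5 and HMA9 gave no call in any Zn comparison. HMA4, which stores copper in vacuoles, had derived means of 2465 and 1878 normalised counts in efficient and 2515 and 2384 in inefficient genotypes, with Zn first, computed from the authors' deposited table. The efficient group without Zn was the lowest of the 4. Its log2 fold change was −0.39 (SE 0.17) in efficient and −0.08 (SE 0.17) in inefficient genotypes by the authors' deposited table, and neither passed the test of any change (adjusted p = 0.145 and 0.799 from the DESeq2 estimates). HMA5, the xylem copper loader, had 669 and 967 normalised counts in efficient and 792 and 763 in inefficient genotypes, with Zn first, computed from the authors' deposited table. The efficient groups were thus the lowest and the highest of the 4. Its log2 fold changes were 0.53 (SE 0.28) and −0.05 (SE 0.28) by the authors' deposited table, with adjusted p = 0.290 and 0.933 for any change from the DESeq2 estimates. HMA9, the exporter at the plasma membrane, had derived means between 1135 and 1347 normalised counts in the 4 groups, computed from the authors' deposited table. Its 95% interval over all genotypes ran from −0.11 to 0.48 on the log2 scale, which leaves room for a rise of up to 1.40-fold. The 95% intervals of HMA4, HMA5 and HMA9 over all genotypes did not reach a 2-fold change. In efficient genotypes alone that of HMA5 ran from −0.02 to 1.09 on the log2 scale, past a 2-fold rise.

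At equal Zn supply HMA1 was the only member to differ between the classes, and only without Zn, by the test of any change. Without Zn, no member was called beyond 2-fold, against 0.298% of 32514 genes, and 4.04% of genes passed the test of any change. HMA1 stood 1.93-fold higher in inefficient genotypes (log2 0.95, SE 0.17, 95% interval 1.54 to 2.42 as a fold, adjusted p = 2.92e-06 from the DESeq2 estimates), computed from the authors' deposited table. With Zn the log2 class difference of HMA1 was −0.09 (SE 0.18) by the authors' deposited table. There 0 members passed either test, against 0.00923% of genes called beyond 2-fold and 0.0677% called for any change, and the lowest unadjusted p for any change was 0.0524, that of HMA3. Over both supplies 0 members passed either test as well, where 0.0524% and 0.804% of genes did, and HMA1 and HMA3 had an unadjusted p for any change under 0.05. HMA3 had the lowest values, at a log2 class difference of −0.66 (SE 0.39) without Zn, −0.79 (SE 0.41) with Zn and −0.72 (SE 0.27) over both supplies by the authors' deposited table. For the last the 95% interval ran from −1.24 to −0.20, but the adjusted p for any change was 0.241 from the DESeq2 estimates. HMA2, HMA4, HMA5 and HMA9 lay between −0.34 and 0.34 at either supply.

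**Figure D3:**
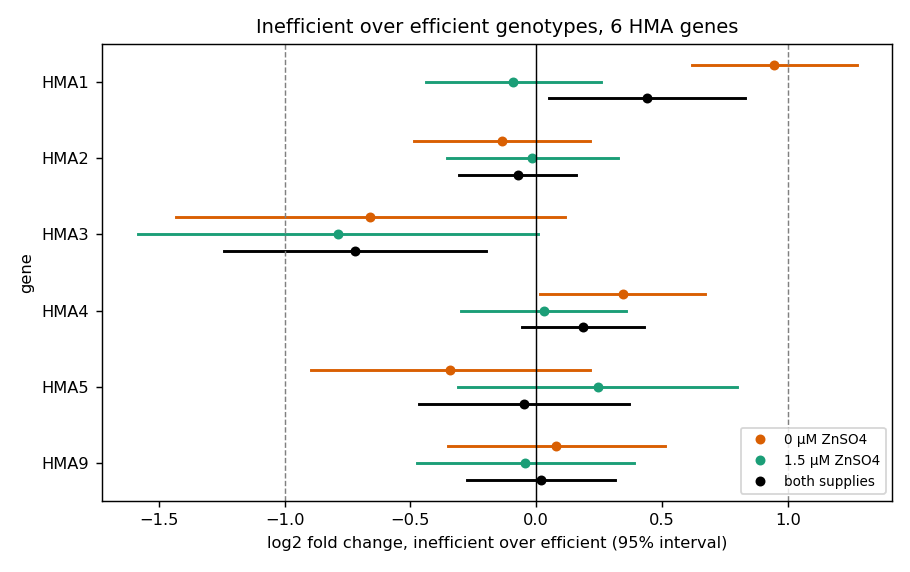
Log2 fold change of inefficient over efficient genotypes (x axis) for the 6 genes (y axis) at 0 µM, at 1.5 µM ZnSO4 and over both; points are the deposited values, lines their 95% intervals, and dashed lines mark a 2-fold difference. HMA1 lies at 0.95 without Zn and −0.09 with Zn, and HMA3 lies below 0 in all 3 comparisons.

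Some markers of tissue composition passed the test of any change in the same comparisons as HMA1. On Zn withdrawal in inefficient genotypes, the root marker RCc3 fell by 1.47 and OSH1 fell by 1.20 on the log2 scale, while PSBO rose by 0.92, all by the test of any change. In efficient genotypes WOX11 rose by 0.94 by that test and the other markers did not pass. That test was passed by 32.2% of all genes in inefficient and by 7.86% in efficient genotypes. Without Zn, all 3 of RCc3, LSI1 and LSI2 were lower in inefficient than in efficient genotypes by that test, with a median log2 difference of −1.47, and WOX11 was lower too, at −1.14. The other markers did not pass in that comparison, where 4.04% of all genes passed. The summed derived mean of the 3 root markers was 9077 and 10437 normalised counts in efficient genotypes with and without Zn, and 7202 and 3747 in inefficient genotypes, computed from the authors' deposited table. No marker was at 0 in any group. The summed crown and shoot meristem markers ranged from 2468 to 3742 and the leaf markers from 1983 to 2784 over the 4 groups, computed from the authors' deposited table. The part of tissue composition in the Zn response and the class difference of HMA1 was not tested.

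The order of the 4 group means of HMA1 was inefficient without Zn, efficient without Zn, efficient with Zn and inefficient with Zn. Of the neighbours in this order, the first pair differed (log2 0.95), the second pair differed (log2 3.08), and the third pair, 323 against 303 normalised counts, did not pass (adjusted p = 1.00 from the DESeq2 estimates). For HMA2, HMA3, HMA4, HMA5 and HMA9, no pair of neighbouring group means with a deposited comparison passed the test of any change. The HMA2 pair across the Zn step, 368 against 268 normalised counts, had no deposited comparison, so this order does not test its Zn response.

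Genes most like HMA1 were sought by distance over 3 log2 values, the Zn response in each class and the class difference without Zn, among 9889 other genes with a mean of at least 100 normalised counts and an informative product. The closest was OS06G0166000, an F-box domain gene, at a distance of 0.43. Its log2 Zn response was 3.39 (SE 0.16) in efficient and 4.38 (SE 0.16) in inefficient genotypes by the authors' deposited table. These values chose the gene and are given as a description. A haem peroxidase gene (OS04G0688300) and an alpha glucosidase-like gene (OS07G0421300), stood at distances of 0.57 and 0.76. Between them stood a type 1 metallothionein-like gene (OS12G0571000) at 0.61 and a UDP-glucosyltransferase family gene (OS11G0457300) at 0.69. The SEs of these, 1.39 and 1.16 in each class, make their likeness imprecise.

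Genes of zinc uptake rose beside HMA1. Of the 16 tested genes for zinc uptake and chelation, 5 rose beyond 2-fold in efficient and 6 in inefficient genotypes and 0 fell in either, with list medians of 1.22 and 1.24, where 0.280% and 3.50% of all genes were called. The largest response among them was that of ZIP9, a zinc uptake transporter gene, at 5.80 (SE 0.38) and 6.63 (SE 0.38) by the authors' deposited table. NAS3, a nicotianamine synthase gene, had 2.25 (SE 0.20) and 2.01 (SE 0.20), below HMA1, by the authors' deposited table. NAS1 and NAS2, of the same family, lay below 0, at −1.28 and −1.79 for NAS1 and −0.74 and −1.19 for NAS2. Over all genotypes NAS1 fell by the test of any change (adjusted p = 0.0227 from the DESeq2 estimates), and NAS2 did not pass. In the zinc list 0 of 16 genes passed the test of a different response between classes at an adjusted p under 0.05. Of all 24127 genes, 2.36% passed it. The list median of the difference between classes was 0.10, computed from the authors' deposited table. It was 0.83 (SE 0.54) for ZIP9, 0.37 for ZIP8, 0.10 for ZIP4, 0.10 for ZIP5, 0.07 for ZIP7 and −0.23 for NAS3. That HMA1 passed the test of a different response and the zinc list did not is not a test of HMA1 against the list. For metal efflux and sequestration 0 genes passed beyond 2-fold, of 11 tested in efficient and 10 in inefficient genotypes, and 2 and 4 rose by the test of any change, while 0 and 1 fell. That test was passed by 7.86% of all genes in efficient and 32.2% in inefficient genotypes. The gene that fell was NRAMP1, known as an uptake transporter and not an exporter, at −1.70 (SE 0.70) in inefficient genotypes by the authors' deposited table. MTP11, a cation diffusion facilitator gene, rose by that test in both classes, at 0.71 (SE 0.21) and 1.27 (SE 0.21), and VIT2, a vacuolar membrane transporter gene, at 2.24 (SE 0.68) and 3.03 (SE 0.68), by the authors' deposited table.

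**Figure D4:**
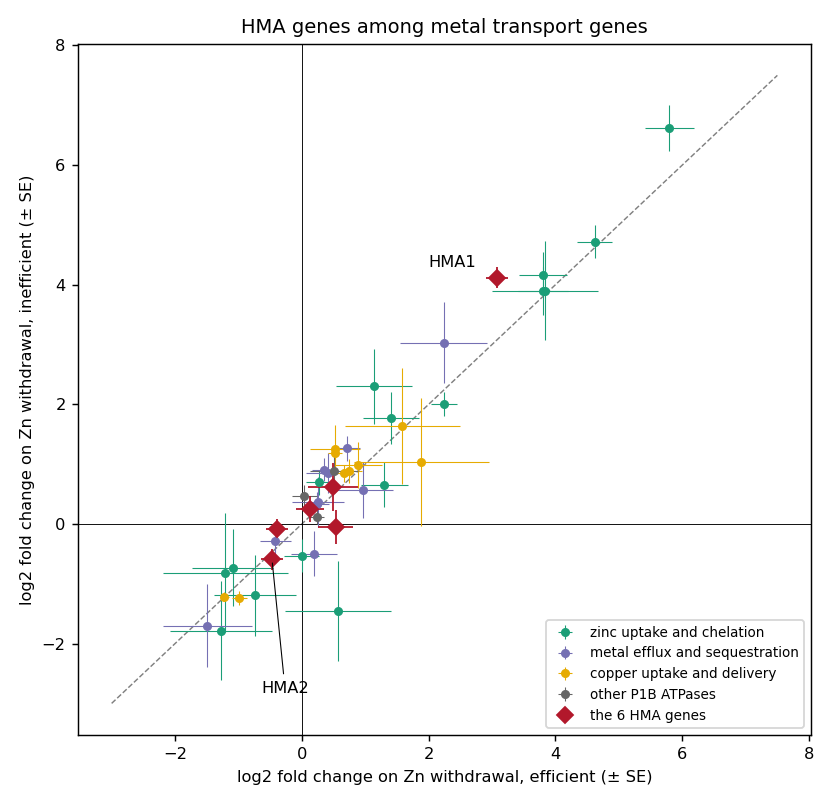
Log2 fold change on Zn withdrawal in efficient (x axis) and inefficient genotypes (y axis) for the 6 HMA genes (diamonds) and for genes of 4 metal lists tested in both (circles), with bars of 1 SE and a dashed line of equal response. HMA1 lies above the line at 3.08 and 4.12, among the zinc uptake genes. The other diamonds lie between −0.59 and 0.62 on both axes, with HMA2 at −0.47 and −0.59.

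Genes of copper delivery passed the test of any change where HMA4, HMA5 and HMA9 did not. ATX1 (OS08G0205400), a copper chaperone that hands copper to P-type ATPases, rose by the test of any change, by 0.52 (SE 0.11) in efficient and 1.18 (SE 0.11) in inefficient genotypes by the authors' deposited table. Its response also differed between classes, by 0.67 (SE 0.16, adjusted p = 0.00276 from the DESeq2 estimates), the only such call among the 9 copper genes tested. Of all 24127 genes, 2.36% passed that test of a difference. COPT7, of the Ctr copper transporter family, rose by the test of any change too, by 0.74 (SE 0.20) and 0.88 (SE 0.20) by the authors' deposited table. Over all genotypes 1 gene of this list was called beyond 2-fold, cCuZnSOD1, which fell by 1.22 (SE 0.05, DESeq2 adjusted p = 0.00156) on the log2 scale by the authors' deposited table. The cytosolic Cu/Zn superoxide dismutase genes cCuZnSOD1 and cCuZnSOD2 fell in both classes by the test of any change, by 1.22 and 0.99 in efficient and by 1.22 and 1.24 in inefficient genotypes, by the authors' deposited table. The plastid Cu/Zn superoxide dismutase gene pCuZnSOD rose by 0.66 (SE 0.15) and 0.84 (SE 0.15) by the authors' deposited table. In this list 3 of 10 genes rose and 2 fell in efficient genotypes, and 5 of 9 rose and 2 fell in inefficient ones, by the test of any change, which 7.86% and 32.2% of all genes passed. The 3 other HMA genes in the tables, HMA6 (OS02G0172600), HMA7 (OS08G0486100) and HMA8 (OS03G0178100), all annotated as heavy metal or copper ATPases, were not called in either class by either test. Over all genotypes HMA6 passed the test of any change at 0.70 (SE 0.26, adjusted p = 0.0250 from the DESeq2 estimates), while HMA7 and HMA8 had 0.18 (SE 0.08) and 0.25 (SE 0.14) by the authors' deposited table.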

How the data were processed

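RNA-seq libraries of rice crowns were processed by the authors on build IRGSP-1.0 with DESeq2 1.12.3, HISAT2 2.0.4, featureCounts (Subread 1.5.0-p3), Trimmomatic 0.36 and FastQC 0.11.5, per the submitters' processing notes. The annotation release, strand setting and design of the fits are not given in the sources used here. Per the file headers, each of the 6 deposited tables holds per gene the mean normalised count (a signal: counts divided by size factors, averaged over libraries), the log2 fold change, its SE, a test score, the p-value and the adjusted p-value. The deposited score is the size of the log2 fold change less 1 over its SE, and 0 for changes within 2-fold; the deposited adjusted p-value is by Benjamini-Hochberg.

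Members were read out of whole tables. The test of any change (log2 fold change over SE, two-sided normal p) was adjusted over the genes the deposited table adjusted over. The response difference divided the difference of log2 fold changes by the root of the summed squared SEs and was adjusted over 24127 genes. The within-class comparisons contrast no library in common. The overall mean of each gene was the same in all 6 comparisons, and the SEs of HMA1 were 0.172 in both classes. An SE within a class may therefore draw on libraries of both classes and not on its 3 genotypes alone. The test of the response difference and the recomputed deposited test were checked on log2 fold changes simulated with the deposited SEs. Such a simulation cannot show whether those SEs are right. Group means were derived from the overall mean and 3 group contrasts, assuming equal group weights. They carry no error. The fourth contrast agreed to within 0.01 (log2) for all 6 genes. The pooled comparisons share libraries with the others.

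The members, the lists and the named genes were chosen with earlier results of these data known. The lists were written by hand and a gene was kept where its annotated product fitted: of 56 listed with the markers, 2 were not measured and 1 was dropped. The rule names, per list, up to 6 genes called beyond 2-fold in a Zn comparison, the 6 members, and the 5 genes closest to a called member. Other named list genes were chosen after their values were seen. Protein and promoter sequences were not used here, and 1 marker gene is not reported here. Depth per library is unknown, and p-values measure the spread between genotypes as the authors' DESeq2 fits modelled it. Python 3.11.15, numpy 2.4.6, pandas 2.3.3, scipy 1.17.1 and matplotlib 3.10.9 were used.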

Additional observations from a re-analysis of the deposited data

Results flagged for a closer look

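The Zn response of HMA1 differed between the classes by the test of the difference itself: the log2 rise was 3.08 (SE 0.17) in efficient and 4.12 (SE 0.17) in inefficient genotypes by the authors' deposited table, a difference of 1.04 (SE 0.24, adjusted p = 0.00294 from the DESeq2 estimates). How many single genotypes show this direction was not analysed here.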

How the results depend on the processing

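No paired analysis was possible because the tables hold no values per library, although each genotype occurs at both Zn supplies; leaving out a library could not be done for the same reason. With the test of any change, the members called went from 1 to 2 in inefficient genotypes and over all genotypes (HMA2 added) and from 0 to 1 for the class difference without Zn (HMA1 added). Of all genes, 32.2% passed it in inefficient genotypes, 34.1% over all genotypes and 4.04% for the class difference without Zn. With that test centred on the median gene, an alternative chosen after seeing the data, the counts were again 2, 2 and 1. With that test and widened SEs, also chosen after seeing the data, the class difference of HMA1 without Zn still passed (1 member, adjusted p = 0.00648 from the DESeq2 estimates), while HMA2 no longer passed in inefficient genotypes (adjusted p = 0.914) or over all genotypes (adjusted p = 1.00) and the count there was 1. With a test beyond 2-fold, 0 members passed for the difference of the Zn response. Over its other alternatives, the adjusted p of that difference for HMA1 ran from 0.00242 to 0.00723. The calls of HMA1 for the Zn response beyond 2-fold held under a stricter threshold, widened SEs, centring and both other sets of genes adjusted over, and also, over all genotypes, with the mean of both classes, chosen after seeing the data. The highest adjusted p was 0.00447, over all genotypes with widened SEs (DESeq2 estimates). Centring moved no comparison by over 0.02 (log2). No member changed sign under any alternative, and the derived group means stayed within 0.01 (log2) when built from the class difference with Zn. HMA3, at 60.5 normalised counts, had SEs of 0.39 and 0.41 within a class, and its 95% intervals for the Zn response there reached past a 2-fold rise. The interval of HMA5 in efficient genotypes did too, from −0.02 to 1.09 (log2).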

Other observations

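The SE of HMA1 in the pooled comparison of Zn supplies was 0.20, whereas the mean of both within-class log2 fold changes, 3.60, had an SE of 0.12, computed from the authors' deposited table. This ratio was 1.64 for HMA1 and between 0.94 and 1.06 for the other members, and the median over 19840 genes was 0.97, with 136 genes at or above HMA1.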
